A study of Canis lupus familiaris with 8 samples.

Results

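The miR-130/miR-301 family was followed in small RNA libraries made from vesicles (exosomes) that dog mammary cells released into culture medium. Its members were taken by name from the deposited table: cfa-miR-130a, cfa-miR-130b, cfa-miR-301a and cfa-miR-301b, which are 4 of the 452 miRNAs listed there. All 4 were present, and 3 of them could be tested between groups. Tumour vesicles came from 5 canine mammary tumour (CMT) lines of carcinoma origin (CMT-12, CMT-27, CMT-28, CMT-47 and CMT-119), 1 library per line. Normal vesicles came from 3 samples of normal canine mammary cells (CMEC1 to CMEC3), which the labels call biological replicates without saying whether they came from different dogs. Breed, sex and age of the dogs are not given in the labels. No treatment distinguished the groups. All cells grew in the same serum-free medium, and the medium of the 48 hours after a discarded first 24 hours was collected on day 3. p-values below rest on the spread between 5 lines, with 1 library each, and between 3 CMEC samples that may or may not share a dog. The limma test pools these spreads, which may differ in kind. A lower signal in a library may mean fewer vesicles that carry the miRNA, fewer copies in each, or a larger share of other RNAs. These cannot be told apart here.

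miRNAs are short RNAs that guide Argonaute proteins to messenger RNAs and lower their output, mainly through pairing of the seed near the 5′ end. The members of the miR-130/miR-301 family share their seed and are therefore expected to repress overlapping targets. In human cells these include parts of TGF-beta signalling. miR-130a is best known from human endothelial cells, where it promotes angiogenesis by repressing antiangiogenic homeobox genes. miR-301a is described as oncogenic in human carcinomas, breast carcinoma among them.

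The 4 members come from 3 places in the dog genome (canFam3, coordinates as the table gives them). cfa-miR-130a (MI0008029_1) lies alone on chromosome 18 from 38543618 to 38543639, on the minus strand. cfa-miR-301b (MI0010349_1, chromosome 26, 30924145 to 30924167) and cfa-miR-130b (MI0008064_1, 30924470 to 30924491) lie 302 bases apart on the plus strand. cfa-miR-301a (MI0010348_1) lies on chromosome 9 from 33724584 to 33724606, on the minus strand. In the RefSeq gene table, which uses the assembly UU_Cfam_GSD_1.0, MIR301A lies within the span of SKA2, a gene of the spindle and kinetochore complex. The MIR301B and MIR130B pair lies outside protein-coding genes, next to SDF2L1, and MIR130A lies between YPEL4 and SERPING1. Whether these positions are exonic or intronic was not analysed here. Each member had 1 locus in the table, and mature lengths were 22 bases for the miR-130 members and 23 bases for the miR-301 members, so levels of different members were compared without length scaling. Differences in adapter ligation between miRNAs were not measured.

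The values were normalised signals with a lowest value of exactly 1, called the floor below. Values above the floor were whole multiples of 1 step per library, read here as the worth of 1 read. Recovered reads over all 452 miRNAs ranged from 81138 in CMT-12 and 85906 in CMEC2 to 1405893 in CMT-27. One read was worth 2.32 in CMT-12, 2.83 in CMEC2 and 0.386 to 1.39 in the other libraries. CMT-27 stood apart, with a median log2 value of 6.93 over the 193 tested miRNAs, against 3.60 to 4.82 in the other 7 libraries. For this reason the members' levels are given as deposited and in RPM (reads scaled to a library total of 1000000 recovered reads). Their log2 differences are given with and without CMT-27. RPM did not remove all of this offset. In CMT-27 and CMT-47 (1405893 and 1044754 recovered reads) 1 read was worth 0.692 and 0.694, but the medians were 6.93 and 4.62. miR-21 alone made up 24.9% (CMT-12) to 63.1% (CMT-28) of the recovered reads. Relative to the library's median log2 value, miR-130a was at 0.27 in CMT-27, against -2.73 to -0.61 in the other 7 libraries. For miR-301a this was -2.79, against -3.76 to -1.69. Depths below are recovered reads, and reads counted at the level of CMT-27 are those at its RPM. The intervals are exact Clopper-Pearson intervals at 95% and describe counting error alone: the protocol names no molecular identifiers, so copies of 1 molecule may have been counted repeatedly.

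The family was scarce in these vesicles. It summed to 361 reads over the 8 libraries, of 4754761 recovered reads, and 291 of them (80.6%) came from CMT-27, which held 29.6% of all recovered reads. Of the 32 pairs of a member and a library, 14 were at the floor, 9 rested on 1 to 3 reads and 3 on 4 to 9 reads. Only 6 rested on 10 reads or more: the 4 members in CMT-27, and miR-130a in CMT-28 and CMT-47. All 4 members were above the floor in CMT-27 and in CMEC1, 3 in CMT-12, 2 in CMT-47 and CMEC2, and miR-130a alone in CMT-28, CMT-119 and CMEC3. In CMEC1 the 3 members other than miR-130a were there with 1 read each. Summed over the family, CMT-27 had 207 RPM (184 to 232) and CMT-12 had 111 (50.7 to 211). The remaining tumour lines had 11.1 to 26.0 RPM and the CMEC samples 14.4 to 23.3 RPM, ranges that overlap.

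**Figure D1:**
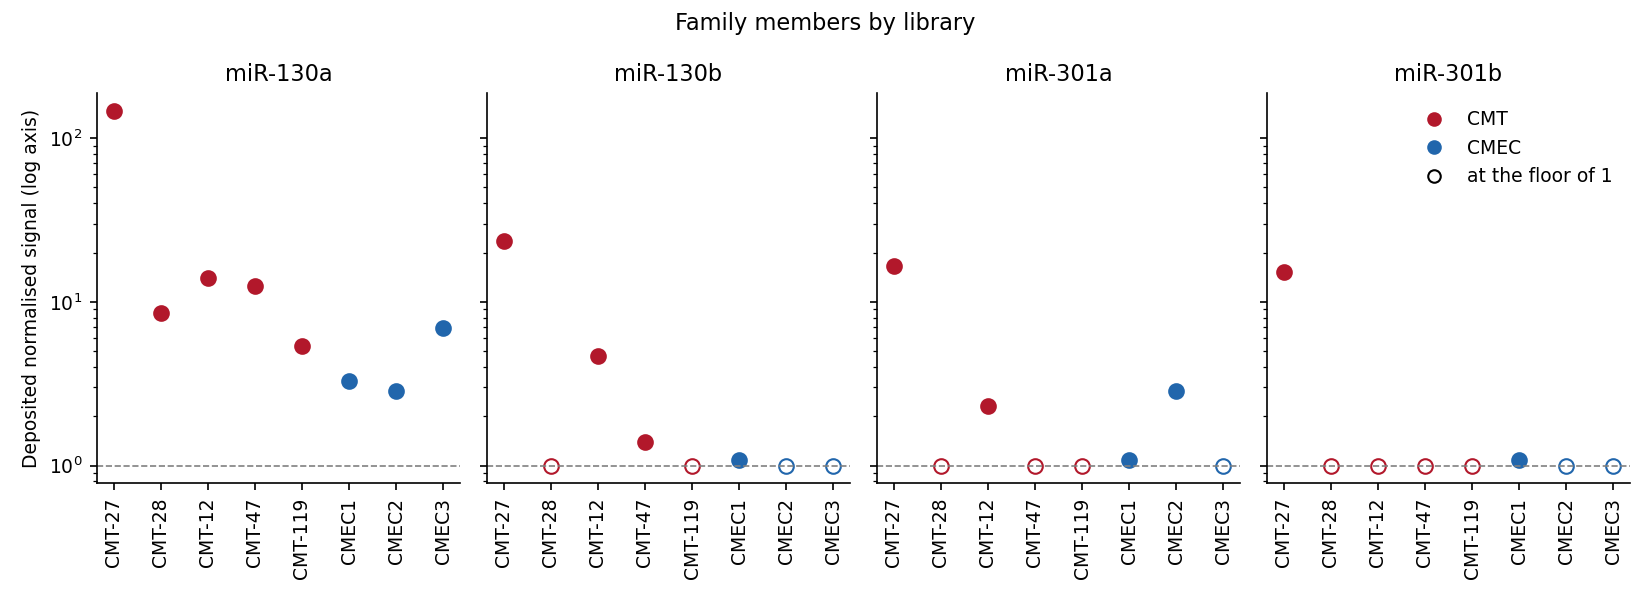
Deposited normalised signal (log axis) of the 4 members in each of the 8 libraries; red points are CMT lines, blue points CMEC samples, and open points lie at the floor of 1 (dashed line). CMT-27 has the highest value of every member, and miR-130a is the only member above the floor in all libraries.

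miR-130a was the leading member and the only one detected in every library. Its deposited value reached 146 in CMT-27. The lines CMT-12, CMT-47, CMT-28 and CMT-119 followed with 13.9, 12.5, 8.50 and 5.37. In the normal samples it was 3.26 in CMEC1, 2.83 in CMEC2 and 6.93 in CMEC3. CMT-27 was far above all other libraries, 4 of the 5 CMT lines were above every CMEC sample, and CMT-119 lay below CMEC3, so the groups overlapped. The mean log2 value was 4.15 ± 1.77 over the CMT lines (SD, n = 5), against 2.34 ± 0.57 over the CMEC samples (SD, n = 3). The difference was 1.81 ± 1.23 on the log2(value + 1) scale (SE), with a 95% interval from -0.78 to 4.41, and did not pass the threshold (limma, Benjamini-Hochberg adjusted p = 0.537). limma called no miRNA of the table in this comparison (0 of 193, 0%), and 21 (10.9%) had an unadjusted p under 0.05. limma-voom on recovered reads also called 0, and limma with sample weights called 15, no member among them. Without CMT-27 the difference of miR-130a was 1.05, its lowest value with any library left out.

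The reads behind these values were few outside CMT-27. miR-130a had 211 reads in CMT-27, then 22 in CMT-28, 18 in CMT-47, and 6 each in CMT-12 and CMT-119. The CMEC samples had 3, 1 and 5 reads (CMEC1, CMEC2 and CMEC3). CMT-27 led with an RPM of 150 (131 to 172), followed by CMT-12 with 73.9 (27.1 to 161). These intervals overlap, and CMT-12 and CMT-27 cannot be ordered at this depth. Next came CMT-28 with 26.0 (16.3 to 39.4), CMT-47 with 17.2 (10.2 to 27.2), CMEC3 with 14.4 (4.68 to 33.7), CMEC2 with 11.6 (0.295 to 64.9), CMT-119 with 11.1 (4.08 to 24.2) and CMEC1 with 7.42 (1.53 to 21.7). Neighbours in this order had overlapping intervals throughout. CMT-27 lay above the intervals of 6 of the other 7 libraries, all but CMT-12. At the level of CMT-27, 127 reads would have been counted in CMT-28 and 157 in CMT-47, where 22 and 18 were found.

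As a share of the summed deposited value, in which the factor of a library cancels apart from values at the floor, miR-130a made up 55.6 ± 58.3 parts in 1000000 (ppm) over the CMT lines (SD, n = 5), against 11.2 ± 3.52 ppm over the CMEC samples (SD, n = 3). The SD of the CMT lines exceeded their mean, and the difference did not pass (two-sided exact permutation p = 0.161, adjusted p = 0.829 over 193 miRNAs). The smallest p that the 56 ways of dividing the libraries into 5 and 3 can give is 0.0179. After adjustment, a miRNA could therefore pass only if many miRNAs reached that smallest p together. The permutation test passed 0 of the 193 miRNAs, with a smallest adjusted p of 0.689, so it says little about miR-130a. Ordered by value within a library, miR-130a was in place 92 of 209 miRNAs above the floor in CMT-27, and in places 112 to 129 in the other CMT lines. In the CMEC samples its best place was 117, in CMEC3.

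**Figure D2:**
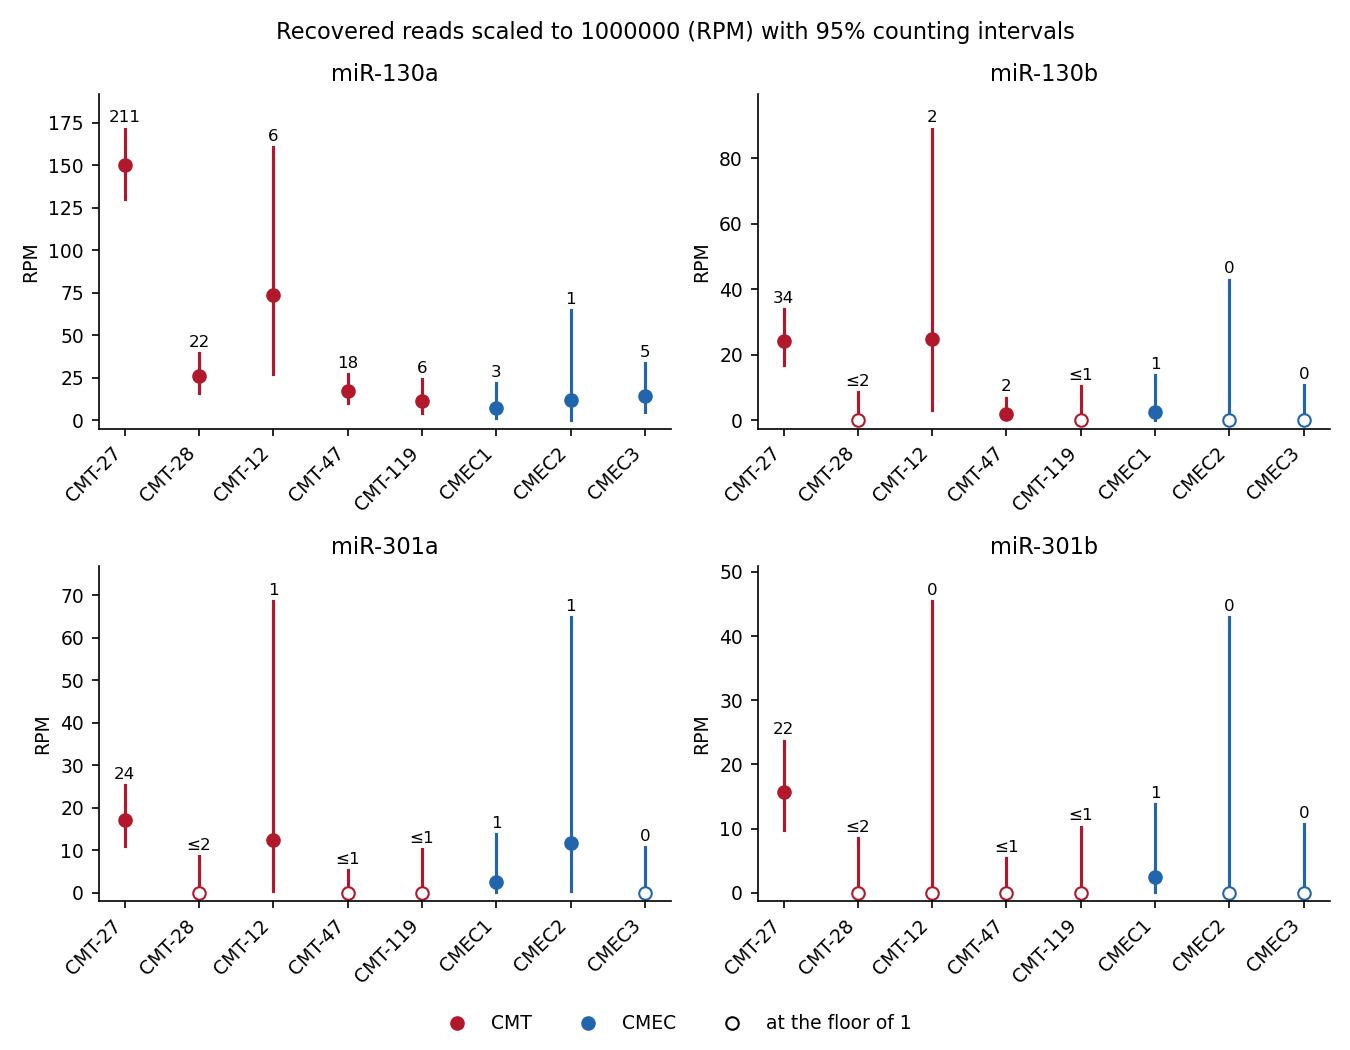
Recovered reads as RPM (linear axes that differ between panels) for each member and library, with 95% Clopper-Pearson intervals as vertical lines and the number of reads printed above each; ≤ marks the reads that the floor can hide, and open points lie at the floor. The intervals of the shallow libraries CMT-12 and CMEC2 are the widest.

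miR-130b, encoded beside miR-301b, was above the floor in 4 libraries. Its deposited value was 23.5 in CMT-27, 4.64 in CMT-12, 1.39 in CMT-47 and 1.09 in CMEC1, and it was at the floor in CMT-28, CMT-119, CMEC2 and CMEC3. Only CMT-27, with 34 reads, gave more than 2 reads. Its highest RPM was in CMT-12 at 24.6 (2.99 to 89.0) from 2 reads, beside 24.2 (16.7 to 33.8) in CMT-27, and the order of these lines cannot be read from such counts. The interval of CMT-27 lay above those of 5 of the other 7 libraries, all but CMT-12 and CMEC2. CMT-47, the second deepest library, had 1.91 RPM (0.232 to 6.92), from 2 reads where 25.3 would have been counted at the level of CMT-27. The log2 difference between groups was 1.05 ± 0.80 (SE, 5 against 3 libraries; limma adjusted p = 0.587; interval -0.63 to 2.74). It was 0.42 without CMT-27, 0.22 after each library was centred on its median and -0.22 with limma-voom on recovered reads.

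miR-301a, the member in SKA2, showed no group direction that held. Its deposited value was 16.6 in CMT-27, 2.32 in CMT-12, 2.83 in CMEC2 and 1.09 in CMEC1, and it was at the floor in CMT-28, CMT-47, CMT-119 and CMEC3. The value in CMEC2, the second highest, was 1 read. CMT-27 had 24 reads, or 17.1 RPM (10.9 to 25.4), and no other library had more than 1 read above the floor. The floor can hide up to 2 reads in CMT-28 and 1 read in CMT-47 and CMT-119, which allows up to 8.54, 5.33 and 10.3 RPM there. These limits, and that of CMEC3 (10.6), lay below the interval of CMT-27, while CMEC1, CMEC2 and CMT-12 were not distinguishable from it. The log2 difference was 0.44 ± 0.75 (SE, 5 against 3 libraries; limma adjusted p = 0.781; interval -1.14 to 2.02). It was -0.15 without CMT-27, and -0.39 after each library was centred on its median.

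miR-301b was at the floor in 6 of 8 libraries, too many to enter the test of the 193 miRNAs. Its value was 15.2 in CMT-27, from 22 reads, and 1.09 in CMEC1, from 1 read. This gave 15.6 RPM in CMT-27 (9.81 to 23.7) and 2.47 in CMEC1 (0.0626 to 13.8), intervals that overlap. Only CMT-28 (up to 8.54) and CMT-47 (up to 5.33) had limits below the interval of CMT-27. In CMT-47, 16.3 reads would have been counted at the level of CMT-27, and the floor allows at most 1. In CMT-12 and CMEC2 the expected number was 1.27 and 1.34 reads and none was found, so their limits (45.5 and 42.9 RPM) do not part them from CMT-27. The means of log2 values differed by 0.58 as deposited, and by -0.0207 without CMT-27, when no CMT line was above the floor.

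The highest deposited value of all 4 members was in CMT-27. This was also the case for 145 of the 241 miRNAs above the floor in any library (60.2%). In RPM CMT-27 was highest for 3 of the 4 members, all but miR-130b, against 35.3% of the 241 miRNAs. Of the 193 tested miRNAs, 73.1% had a higher mean log2 value in CMT, with a median difference of 0.75. The 3 tested members were all higher in CMT as deposited. Relative to that median, miR-130a was at 1.07, miR-130b at 0.31 and miR-301a at -0.31, and 30 of the 193 miRNAs (15.5%) had a difference at least as large as that of miR-130a. No member separated the groups as deposited, where 7.77% of the tested miRNAs were higher in every CMT line than in any CMEC sample and 1.55% were lower.

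**Figure D3:**
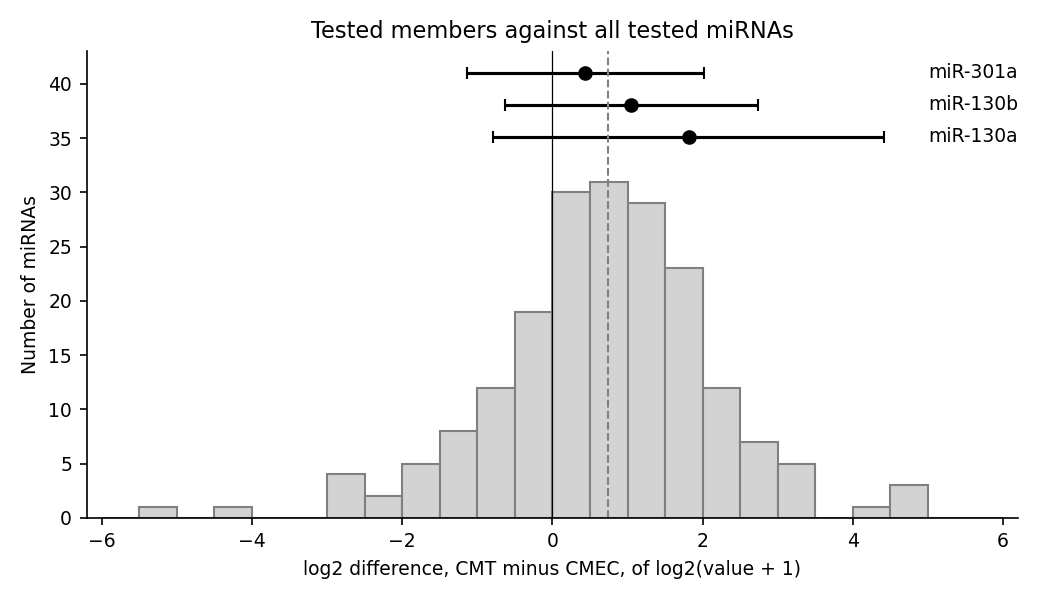
Histogram of the log2 difference (CMT minus CMEC) of the 193 tested miRNAs, with the 3 tested members above it as points with 95% intervals from limma; the dashed line is the median of all tested miRNAs, at 0.75. All 3 intervals include 0, and miR-130a lies to the right of the median.

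Shares within the family depend on how values at the floor are counted. With the floor counted as 1, as deposited, miR-130a held 63.6% to 78.7% of the summed family value in the CMT lines (mean 70.6% ± 6.52, SD, n = 5). In the CMEC samples it held 50.0%, 37.0% and 69.8% (mean 52.2% ± 16.5, SD, n = 3), so the groups overlapped through CMEC3. In CMEC2 the shares of miR-130a and miR-301a were equal, at 37.0% each, because each had 1 read. In CMT-27, the only library with more than 20 reads of each member, miR-130a held 72.5%, miR-130b 11.7%, miR-301a 8.25% and miR-301b 7.56%. There the neighbours miR-130b and miR-301b had 34 and 22 reads. With the floor counted as 0, miR-130a held 66.7% to 100% in the CMT lines and 50.0%, 50.0% and 100% in CMEC1, CMEC2 and CMEC3. CMT-28, CMT-119 and CMEC3 were at 100% because no other member was above the floor there. No test was made on these shares.

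miR-454 is described as sharing the family's seed and was looked at after its values were seen. It lies 10365 bases from miR-301a on the same strand (chromosome 9, 33714197 to 33714218), and MIR454 also lies within the span of SKA2 in RefSeq. Its value was 13.1 in CMT-27 (19 reads) and 1.93 in CMT-28 (5 reads), and it was at the floor in the other 6 libraries, too few to be tested. In CMT-28 it was thus above the floor where miR-301a was not: 5.91 RPM (1.92 to 13.8) against at most 8.54, which overlap.

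miR-19, miR-148 and miR-152 have seeds that overlap that of the miR-130/miR-301 family with a shift of 1 base. These 5 miRNAs were above the floor in all 8 libraries and far more abundant. Together they had 12856 to 47694 RPM in the CMT lines, and 26142 in CMEC1, 247817 in CMEC2 and 254171 in CMEC3, where the 4 members summed to 14.4 to 23.3. miR-148a was the largest part of this sum in every library. miR-19a was close to miR-130a in deposited value. It was equal to miR-130a in CMT-12 and CMEC1, and lower in CMT-27 (119 against 146), CMT-47 and CMEC3. In CMT-28, CMT-119 and CMEC2 it was higher. miR-152 was at 14.5 in CMT-27, also below miR-130a. Of the 5, 3 were higher and 2 lower in CMT. Their median log2 difference was 0.75, equal to that of all tested miRNAs, and 0 passed. The highest was miR-19b, of the proliferation-associated miR-17/92 cluster, at 2.22 ± 1.31 (SE; limma adjusted p = 0.537). The lowest was miR-148a, which is abundant in milk, at -1.75 ± 0.99 (SE; limma adjusted p = 0.537).

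The miRNAs whose pattern was most like that of a member were ranked by Pearson's r over the 8 libraries, on log2(value + 1) minus each library's median. For miR-130a they were miR-7 (r = 0.91, Spearman's rho = 0.98), miR-19a (r = 0.82, rho = 0.79) and miR-155 (r = 0.82, rho = 0.62). Without CMT-27 these r were 0.90, 0.81 and 0.81. miR-7, a miRNA of neuroendocrine cells with several loci in the table, was at 8918 in CMT-27, 256 to 833 in the other CMT lines, and 162, 108 and 1065 in CMEC1, CMEC2 and CMEC3. As with miR-130a, CMEC3 was its highest CMEC sample and CMT-119 its lowest CMT line. miR-19a was at 119 in CMT-27, 6.27 to 19.7 in the remaining tumour lines, and 3.26 to 5.67 in CMEC. miR-155, known from immune cells and described as oncogenic, was lowest in CMEC1, at 7.61, and highest in CMT-27, at 1210.

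**Figure D4:**
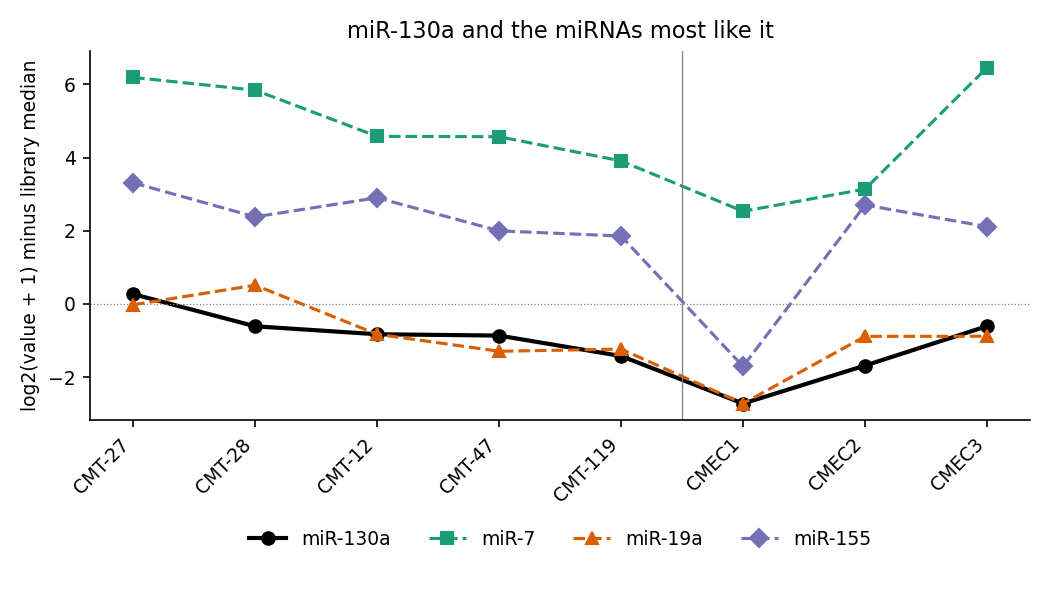
log2(value + 1) minus the library's median over tested miRNAs, for miR-130a (black) and the 3 miRNAs with the highest Pearson's r to it (miR-7, miR-19a and miR-155); the vertical line parts CMT lines from CMEC samples. All 4 are lowest in CMEC1, and miR-130a lies above its library's median in CMT-27 alone.

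The other members were less alike than these. miR-130b ranked sixth in likeness to miR-130a (r = 0.71, rho = 0.67) and miR-301a ranked 53rd (r = 0.22, rho = 0.45), while miR-130b and miR-301a had r = 0.65 (rho = 0.67). For miR-130b the nearest were miR-155 (r = 0.85, rho = 0.88), miR-200a (r = 0.84, rho = 0.98) and miR-200c (r = 0.81, rho = 0.83), the latter 2 of a family that holds cells in an epithelial state. For miR-301a they were miR-26b (r = 0.72, rho = 0.74), the white blood cell miRNA miR-150 (r = 0.72, rho = 0.57) and miR-214 (r = 0.70, rho = 0.64). Without CMT-27 these r were 0.82, 0.80 and 0.78 for miR-130b and 0.73, 0.91 and 0.89 for miR-301a, and the r between members were 0.63, 0.21 and 0.68 in the order given. These values describe 8 libraries that differ in depth. For miR-130b and miR-301a they rest largely on floor values, which after centring carry each library's median.

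The lines with the highest RPM of miR-130a and miR-130b, CMT-27 and CMT-12, were also the lines with the most epithelial marker miRNAs. The place of CMT-12 is not settled, because it rests on 6 reads of miR-130a and 2 of miR-130b. Its intervals (27.1 to 161 and 2.99 to 89.0 RPM) overlap those of CMEC2 (0.295 to 64.9 and up to 42.9). The 8 epithelial markers (miR-200a, miR-200b, miR-200c, miR-141, miR-429, miR-203, miR-205 and miR-183) summed to 21393 RPM in CMT-27 and 43802 in CMT-12, with 7 of 8 above the floor in each. The remaining tumour lines had 2473 to 4092 and the CMEC samples 110 to 3839, with 2 to 5 above the floor. In the remaining tumour lines and CMEC1 this sum was nearly all miR-183. As deposited, miR-183 made 2960 of 2970 in CMT-47 and 1676 of 1692 in CMEC1. miR-205 was high in CMT-12 alone, at 473, and its 3.46 in CMT-27 lay below 15.2 in CMT-119 and 5.67 in CMEC2. miR-200b and miR-429 were above the floor in CMT-27 and CMT-12 only, and miR-141 was at the floor in all 8 libraries. The deposited value of miR-200c, which marks epithelial cells, was 5.44 to 25.5 in the CMEC samples and 1.00 to 8.06 in CMT-28, CMT-47 and CMT-119, below the 2022 of CMT-12 and the 13903 of CMT-27. Mesenchymal and smooth muscle markers (miR-143, miR-145, miR-199 and miR-214) summed to an RPM of 151.5 in CMT-27 and 2551 in CMT-12, against 43986 to 139198 in the remaining tumour lines and 16847 to 185715 in CMEC, with at least 3 of 4 above the floor everywhere. miR-143 was the largest part of this sum in every library. miR-145 was also lowest in CMT-27 and CMT-12, but among the CMT lines miR-199 did not follow. Its deposited value was 12.5 in CMT-47 and 4.48 in CMT-119, below 17.3 in CMT-27 and 18.5 in CMT-12. In CMT-28 it was 1616. miR-214 was at the floor in CMT-27, CMT-47 and CMT-119, at 2.32 in CMT-12 and at 5.02 in CMT-28. The 3 red blood cell markers summed to 1011 in CMT-12 and 221 in CMEC2, and to 2.47 to 59.2 elsewhere. The white blood cell markers, of which miR-223 was at the floor in every library, summed to at most 148. The endothelial marker miR-126 was at most 27.2 RPM. The part of cell identity, and of the depth and scaling of CMT-27, in the levels of the family was not tested.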

How the data were processed

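Per the labels, 500 ng of RNA from the vesicles in 5 mL of medium entered each small RNA library, and single reads of 50 bases were taken. The authors deposited 1 table of normalised signal for 511 mature miRNA loci in 8 libraries. The build canFam3 comes from the submitters' processing notes. The sources used here name no aligner, counting program or normalisation method. Reads were recovered as multiples of 1 step per library: above the floor, 99.0% to 100% of the values were whole within 0.05 steps. No label records this. Where a miRNA had several loci (45 miRNAs), its most abundant locus was used.

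miRNAs above the floor in at least 3 libraries (193) were tested with limma 3.58.1 in R 4.3.3 on log2(value + 1), eBayes with an intensity trend, CMT minus CMEC, at an adjusted p of 0.05, and with exact permutation of shares. The model was also run on simulated data, but the outcome is not given here, so nothing is drawn from it about the power of the test. Members, lists and tests were chosen with earlier results of these data known. Named besides the members were the 3 miRNAs most like each tested member, the list of related seeds with its extremes, and the cell type markers. Neighbours within 10 kb were also to be named, but only members lay that close to each other. miR-454, which lies beyond that distance, and miR-21 were added. A further planned list is not reported here. No batch is given in the labels. Mature sequences were not used here.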

Additional observations from a re-analysis of the deposited data

Results flagged for a closer look

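In the 5 CMT lines, 12 values were screened for a line far from the others (each member's log2 value, RPM and percent of the family value). The screen found 5. Its chance rate of about 1 in 20 holds for independent values without ties, so the 5 cannot be set against it. The 12 values are several measures of the same reads. For miR-301b the other CMT lines were tied at the floor, so any value above it would have been found. Groups of 3, such as CMEC, were not screened. On the log2 scale CMT-27 stood above the other lines for miR-130a, at 7.20 against 3.90 in the next line, for miR-301a, at 4.14 against 1.73, and for miR-301b, at 4.02 against 1.00. miR-301b also stood apart in RPM, at 15.6 in CMT-27 against 0 recovered reads in the other lines. In RPM, CMT-27 did not stand apart by this screen for miR-130a, miR-130b or miR-301a. miR-130b made up 21.2% of the family value in CMT-12, against 11.9% in the next line, and this rests on 2 reads.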

How the results depend on the processing

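No alternative brought a member past the threshold (adjusted p of miR-130a 0.433 to 1.00, of miR-130b 0.488 to 1.00, of miR-301a 0.662 to 1.00). For miR-130a the log2 difference kept its sign in all 14 alternatives other than leaving out a library. It ran from 0.77 with sample weights to 2.00 with a pseudocount of 0.1. Some of the 14 could not move it: the 2 filter settings, no trend, robust eBayes, summed loci and exact permutation all left it at 1.81. Those of them that applied to miR-130b and miR-301a also left their differences unchanged. With each library left out, miR-130a ran from 1.05 to 2.19. miR-130b was at -0.22 with limma-voom on recovered reads, and ran from 0.42 to 1.32 with each library left out. miR-301a turned negative in 5: -0.39 with median centring, -0.26 with quantile normalisation, -0.22 with sample weights, -1.42 with limma-voom and -0.24 in RPM with floor values as 0. With each library left out it ran from -0.15 to 0.74, and its share of the summed value from -0.69 (without CMT-27) to 4.90 ppm. The share difference of miR-130a ran from 20.9 (without CMT-27) to 55.6 ppm with each library left out. Leaving miR-21 out of the summed value moved the share differences most. For miR-130a the difference was then 88.0 ppm, against 44.5 in the main setting, and did not pass (exact permutation adjusted p = 0.667). For miR-301a it was 5.09 ppm against 1.78. miR-301b, tested only with no filter (0.58, limma adjusted p = 1.00), was at -0.25 with median centring. The count of called miRNAs was 0 in the main comparison, 15 with sample weights, which gave CMT-27 a weight of 0.177, and 0 to 6 with each library left out (6 without CMEC1), none of them a member. The limma-voom and RPM settings were added after the data were seen. The limma-voom setting used median-of-ratios factors. Fits with a count distribution, under TMM or median-of-ratios factors, were not run, because values under 1 are hidden. No paired analysis was possible because the labels give no pairing between CMT lines and CMEC samples. At the level of CMT-27, CMT-12 and CMEC2 would hold at most 2.08 reads of any member other than miR-130a.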
